A study of Mus musculus with 96 samples.

Results

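A set of 6 genes of the corticotropin-releasing factor (CRF) and urotensin peptide systems were followed across the neurons of the lateral superior olive (LSO): the ligand genes *Ucn*, *Uts2b* and *Crh*, the CRF receptor genes *Crhr1* and *Crhr2*, and *Crhbp*, which encodes a binding protein. They were chosen by name, 6 of 38887 genes in the table, with earlier results of these data known. Each library was the aspirated cytoplasm of 1 patch-clamped neuron, taken from an acute coronal brainstem slice of a C57BL/6J mouse of either sex around hearing onset, in the second postnatal week. No treatment or transgene was involved. Neurons were grouped by their recorded firing pattern: Onset and Sustained neurons are both principal LSO neurons (pLSOs), which send sound-localisation signals upwards, whereas neurons with a Delayed pattern are lateral olivocochlear neurons (LOCs), which project down to the cochlea. A negative control was the content of a pipette that had only touched the slice.

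Of 86 neurons and 10 negative controls, 8 libraries were left out (cell_36, cell_39, cell_40, cell_54, cell_78, cell_85, NC5 and NC6), following an earlier comparison of the labels with the cluster means that the study tabulated; it placed 7 libraries otherwise than their labels and found other values under the name cell_39. That comparison was not repeated here. The left-out libraries include the negative control pipettes NC5 and NC6, which held 3 and 6 of 6 pLSO markers. The kept control NC2 held 4 of 6, so this count does not set NC5 apart. The study's clusters rest on expression and *Ucn* was among the genes it named from them, so values of these libraries are given where they bear on a result. This left 41 Onset and 11 Sustained neurons (52 pLSOs), 28 LOCs and 8 negative controls. The animal behind a neuron is not given, so neurons of 1 class were treated as 1 sample and no difference between classes was tested. Intervals on shares are exact Clopper-Pearson 95% intervals over neurons and cover counting error only. For a gene at 0 in n libraries, the share that a count of 0 allows is given as 3 of n, beside the Clopper-Pearson bound. Both limit the share of libraries with the transcript detected, not of neurons that express it.

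Urocortin, the product of *Ucn*, belongs to the CRF peptide family and activates both CRF receptors, which couple mainly to Gs and cAMP. CRF itself, encoded by *Crh*, prefers the type 1 receptor, and the protein encoded by *Crhbp* takes up both CRF and urocortin outside the cell. *Uts2b* encodes urotensin II-related peptide, which acts on the Gq-coupled receptor encoded by *Uts2r*. LOCs are known as peptide-rich neurons that contact auditory nerve fibres below the inner hair cells, and urocortin has long been used as one of their labels.

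*Ucn* lies on chromosome 5 at 31138063-31138829 and *Uts2b* on chromosome 16 at 27353322-27370239, both on the minus strand of GRCm38. No member overlapped another annotated gene. The 250 bases upstream of the RefSeq start of both genes are shown because these are the members with a class-wide difference (RefSeq, GRCm38.p6, chr5:31138896-31139145 and chr16:27370240-27370489, minus strand, 5′ to 3′). Capitals mark the cAMP response element TGACGTCA and the TATA-type motif TATAA, read on both strands.
Ucn: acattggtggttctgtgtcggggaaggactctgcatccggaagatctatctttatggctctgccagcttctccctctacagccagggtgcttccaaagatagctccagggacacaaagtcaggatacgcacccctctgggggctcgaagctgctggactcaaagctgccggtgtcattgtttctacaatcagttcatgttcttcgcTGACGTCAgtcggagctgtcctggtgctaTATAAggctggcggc
Uts2b: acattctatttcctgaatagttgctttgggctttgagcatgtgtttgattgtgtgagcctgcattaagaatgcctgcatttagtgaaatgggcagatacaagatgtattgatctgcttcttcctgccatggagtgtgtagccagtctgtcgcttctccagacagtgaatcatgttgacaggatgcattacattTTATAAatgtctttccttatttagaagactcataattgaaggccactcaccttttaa
The *Ucn* stretch had a GC content of 54.0%, held TGACGTCA from 44 bases before the start and TATAA from 15 bases before it. The *Uts2b* stretch had a GC content of 39.6% and held TATAA once on each strand, in overlapping positions 57 and 56 bases before the start, and no TGACGTCA. Among 32851 promoter stretches of this length, 1.55% held TGACGTCA and 22.8% held TATAA. RefSeq stretches were matched for 5 of the 6 members, the exception being *Crh*. These matches describe letters, not bound sites.

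Values were the deposited TPM values (transcript abundance normalised by the authors for gene length and library total), rounded to whole numbers, and a gene was called detected at 1 TPM or more. Read counts were not used here, so the depth behind each value is unknown; the number of detected genes stands beside the results instead. Its median was 2488 in Onset neurons, 2618 in Sustained neurons, 2394 in LOCs and 821 in negative controls. The labels were set beside marker genes. Most of these genes had been named by the study from these same neurons, so their split between classes is no independent check. Of 7 LOC markers measured, LOCs held 2 to 7 (median 5) and pLSOs 0 to 3 (median 0). Of 6 pLSO markers, pLSOs held 2 to 6 (median 5) and LOCs 0 to 3 (median 1). The LOC neurons cell_57 and cell_76 stood apart in LOC markers: each held 2 of the 7, *Calca*, which encodes calcitonin gene-related peptide (CGRP), was at 0, and cell_76 had 307 TPM of *Slc17a6*, the vesicular glutamate transporter gene of the pLSO marker list. They held 1 and 2 of 6 pLSO markers, within the range of LOCs. Their sag amplitudes were 1.0 and 0.2 mV (LOCs -0.5 to 2.0 mV, pLSOs 1.8 to 18.5 mV). Their input resistances were 196.1 and 460.8 MΩ (LOCs 58.8 to 903.9 MΩ, pLSOs 16.7 to 147.4 MΩ). Rheobase, the smallest current that elicits a spike, was 300 pA in cell_57 and 0 pA in cell_76. The value of cell_57 was the highest of the LOCs (median 0 pA) and lay within the pLSO range (150 to 850 pA). Spike latencies at rheobase were 4.4 and 12.3 ms (LOCs 3.7 to 90.7 ms, median 19.9, pLSOs 1.3 to 23.9 ms, median 2.4). The LOC neuron cell_64 also held 2 of the 7, but had 4484 TPM of *Calca*, the highest of all. Oligodendrocyte markers were present in every group, with medians of 3 of 5 detected and summed medians of 279 TPM in pLSOs, 1000 TPM in LOCs and 5145 TPM in negative controls. Their part in the results was not tested.

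*Ucn* was found in 23 of 28 LOCs (82.1%, interval 63.1 to 93.9%) and listed at 0 in all 52 pLSOs, which allows a share of up to 5.77% (Clopper-Pearson 6.85%). This 0 and its limits depend on leaving out cell_54. With all labelled libraries *Ucn* was in 1 of 56 pLSOs (1.79%, interval 0.0452 to 9.55%). In LOCs its lowest value was 0, its median 26 and its highest 254 TPM, with a mean of 34.4 ± 49.4 (SD, n = 28 neurons). Apart from the 5 LOCs at 0, the values ran from 2 TPM in cell_82 to 254 TPM in cell_64, with a median of 33. Among the libraries used, classes therefore overlapped only at 0. The highest neuron, cell_64, had the fewest detected genes of the LOCs, 1175, and without it the mean was 26.2 TPM. *Ucn* was also found in 2 of 8 negative controls, at 1 TPM in NC4 and 6 TPM in NC9. With detection set at 5 or 10 TPM the share of LOCs was 78.6% or 67.9%, and that of pLSOs stayed at 0.

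*Uts2b* was found in 16 of 28 LOCs (57.1%, interval 37.2 to 75.5%) and was also listed at 0 in all 52 pLSOs, with the same limits. These too depend on leaving out cell_54, as with all labelled libraries it was in 1 of 56 pLSOs (interval 0.0452 to 9.55%). Its lowest, median and highest values in LOCs were 0, 9 and 78 TPM, and its mean was 12.5 ± 17.3 (SD, n = 28 neurons). The 16 LOCs with the transcript ran from 2 TPM in cell_71 to 78 TPM in cell_64. The same neuron was thus highest for both peptides. Among negative controls only NC9 held *Uts2b*, at 7 TPM, and this pipette also carried 315 TPM of *Calca*, 11 TPM of *Calcb* and 28 TPM of *Gad2*.

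**Figure D1:**
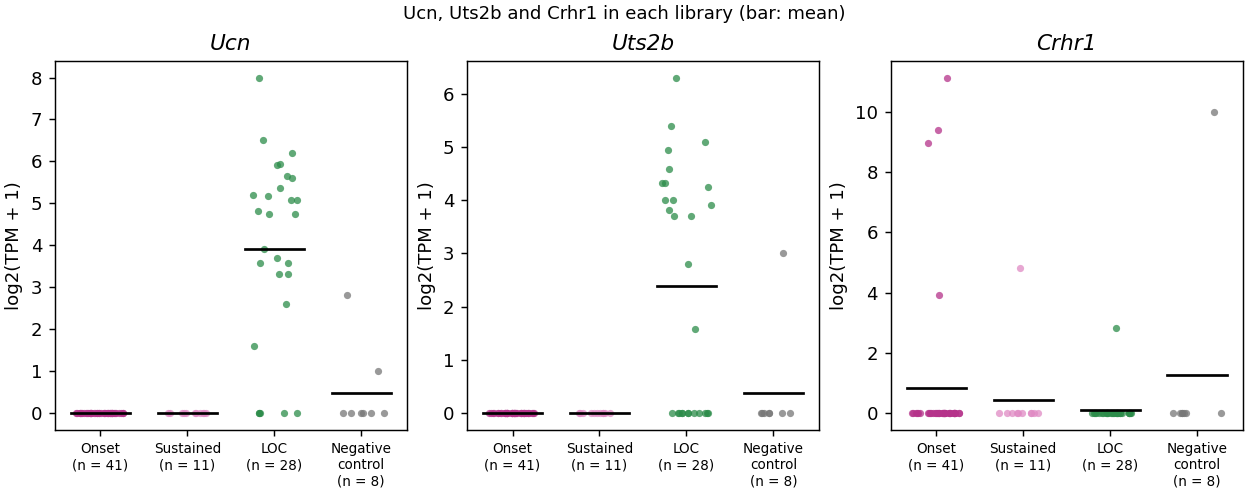
*Ucn*, *Uts2b* and *Crhr1* in log2(TPM + 1) (y axis) for each Onset, Sustained, LOC and negative control library (points, x axis), with the mean of each group as a bar. Values are as deposited, so levels of different genes cannot be compared between panels. *Ucn* and *Uts2b* sit above 0 in 23 and 16 of 28 LOCs and in no pLSO, while *Crhr1* sits above 0 in 5 pLSOs, 1 LOC and 1 negative control.

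On the log2(TPM + 1) scale, the mean difference of LOCs minus pLSOs was 3.92 for *Ucn* (LOC mean 3.92 ± 2.26 SD, pLSO mean 0) and 2.38 for *Uts2b* (LOC mean 2.38 ± 2.25 SD, pLSO mean 0). Over the 10319 genes detected in at least 5% of the 80 neurons, 4.68% were higher in LOCs by 1 or more on this scale and 6.99% were higher in pLSOs by as much. *Ucn*, *Uts2b* and *Crhr1* passed that filter and the other 3 members did not. *Ucn* and *Uts2b* passed it through LOCs alone, so nothing is read from their being past 1. The size of a difference against a class at 0 depends on the scale. That of *Ucn* was 6.58 with a pseudocount of 0.1 TPM, 1.63 with 10 TPM and 8.94 after each gene was rescaled to its own length. That of *Uts2b* was 4.22, 0.864 and 6.09 in the same order, and thus under 1 with a pseudocount of 10 TPM. After rescaling, 6.16% of all genes were higher in LOCs by 1 or more and 10.4% in pLSOs.

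Detection in 50% or more of LOCs with 0 in every pLSO was found for 0.0485% of the genes tested, or 5 genes. Such genes pass the filter through LOCs alone, and the pattern follows the values of *Ucn* and *Uts2b* themselves. Its rarity is therefore a description and lends these members no support. These were *Col4a3* (23 LOCs), *Ucn* (23), *Isl1* (22), *Col4a4* (17) and *Uts2b* (16). *Isl1* encodes a homeodomain factor of cranial motor and olivocochlear neurons, and *Col4a3* and *Col4a4* encode collagen IV chains of basement membranes. *Isl1* and *Col4a3* are LOC markers of the fixed list, and *Col4a4* was named after its values were seen. This pattern rests on leaving out cell_54. With all labelled libraries, *Ucn* and *Uts2b* were each in 1 of 56 pLSOs and no longer had it, and 2 of 9664 genes did, *Isl1* and *Nckap5*. Allowing at most 1 pLSO, 6 of 9664 genes met it there, *Ucn* and *Uts2b* among them. The reverse pattern, 0 in every LOC and detection in 50% or more of pLSOs, was met by 0.0291% of genes. *Calca*, with 26 of 28 LOCs, was found in more LOCs than either member but also in 15 of 52 pLSOs, at up to 58 TPM, and in 5 of 8 negative controls.

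**Figure D2:**
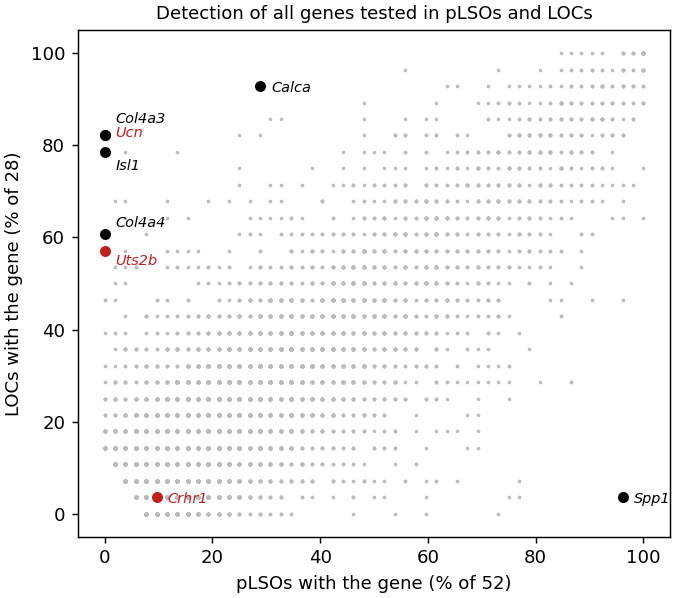
Share of 52 pLSOs (x axis, %) and of 28 LOCs (y axis, %) in which each of the 10319 genes tested was detected (grey points), with members in red and other named genes in black. *Ucn* (82.1% of LOCs, on the same point as *Col4a3*) and *Uts2b* (57.1%) lie on the left edge, at 0% of pLSOs, and *Crhr1* lies near the origin.

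The libraries that had been left out held both peptides as well. Among them, cell_54, which carries the Sustained label, had 28 TPM of *Ucn*, 5 TPM of *Uts2b* and 1887 TPM of *Calca*, with 4 of 7 LOC markers. The LOC-labelled cell_78 had 12 TPM of *Ucn* and 17 TPM of *Uts2b*, and cell_85 had 16 TPM of *Ucn* and no *Uts2b*. These 2 held 4 and 5 of 7 LOC markers, with 827 and 692 TPM of *Calca*. With all labelled libraries, *Ucn* was in 25 of 30 LOCs and 1 of 56 pLSOs, and *Uts2b* in 17 of 30 LOCs and 1 of 56 pLSOs. Without cell_57 and cell_76, *Ucn* was in 23 of 26 LOCs (88.5%) and *Uts2b* in 16 of 26 (61.5%).

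At 1 TPM, the LOCs fell into nested combinations of peptides. All 16 LOCs with *Uts2b* also held *Ucn*, 7 held *Ucn* without *Uts2b*, none held *Uts2b* without *Ucn*, and 5 held neither. This nesting depended on the threshold: at 5 TPM no LOC held *Uts2b* alone, but at 10 TPM there were 2, cell_66 (5 TPM of *Ucn*) and cell_77 (9 TPM of *Ucn*), each with 15 TPM of *Uts2b*. The 7 with *Ucn* alone were cell_58 (14 TPM), cell_59 (73 TPM), cell_60 (90 TPM), cell_61 (59 TPM), cell_75 (9 TPM), cell_81 (35 TPM) and cell_82 (2 TPM). Their *Ucn* values, 2 to 90 TPM, lay within or near the range of 5 to 254 TPM in the LOCs with both. All 23 LOCs with *Ucn* held *Calca*. The 5 LOCs without *Ucn* were not alike: cell_65, cell_70 and cell_83 held *Calca* at 307, 544 and 593 TPM with 5, 6 and 5 of 7 LOC markers, whereas cell_57 and cell_76 were the neurons with few LOC markers described above. Their numbers of detected genes were 2193, 1585, 2012, 3264 and 3111, within the range of the other LOCs.

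Levels of the peptides varied together only in part. Over the 28 LOCs, the correlation of log2(TPM + 1) between *Ucn* and *Uts2b* was r = 0.49 (Spearman's rho 0.35). It was 0.41 without 2 of the LOCs farthest from the *Ucn* median. Those farthest were the LOCs at 0, which tied, and the first 2 in library order were left out. The highest neuron, cell_64, stayed in, and without it alone r was 0.42. *Ucn* and *Calca* gave r = 0.68 (rho 0.67), and r was 0.64 without the same 2 LOCs. *Uts2b* and *Calca* gave r = 0.39 (rho 0.31), and r was 0.39 without 2 LOCs at 0 for *Uts2b*, taken in the same way. The 2 values of a point come from 1 library and share its depth, so these are descriptions. Zeros take part in each of them. Against the number of detected genes, rho was -0.22 for *Ucn* and 0.07 for *Uts2b*.

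**Figure D3:**
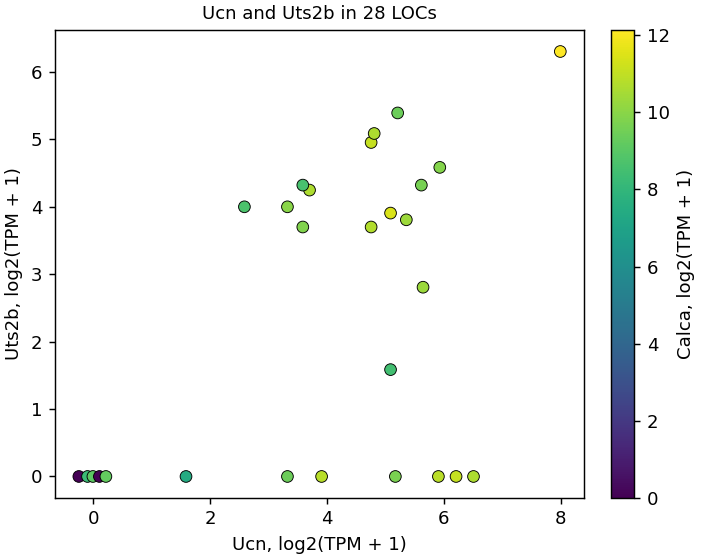
*Uts2b* (y axis) against *Ucn* (x axis), both in log2(TPM + 1), in the 28 LOCs (points), coloured by *Calca* in log2(TPM + 1). The points with neither peptide are spread slightly along the x axis so that all 5 can be seen; 7 LOCs lie on the x axis with *Ucn* alone and none lies on the y axis.

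To set levels of different genes side by side, each gene was rescaled to its own exon length. This was done because the length used in the deposited values appeared to change along the table. On this rescaled scale, with library totals as before, the mean over LOCs was 2290 for *Ucn*, 1144 for *Uts2b*, 1032 for *Calcb*, which encodes the second CGRP, and 13544 for *Calca*. The ratio of mean *Ucn* to mean *Uts2b* was 2.00 (2.75 as deposited). This order of means did not hold neuron by neuron: of the 16 LOCs with both, *Ucn* was above *Uts2b* in 8 and below it in the other 8, on the deposited scale as on the rescaled one. As deposited, the neurons with more *Ucn* ran from cell_62 (26 TPM of *Ucn*, 12 TPM of *Uts2b*) through cell_71 (33 and 2 TPM) and cell_67 (49 and 6 TPM) to cell_64 (254 and 78 TPM). Those with more *Uts2b* ran from cell_66 (5 TPM of *Ucn*, 15 TPM of *Uts2b*) through cell_77 (9 and 15 TPM) and cell_69 (26 and 30 TPM) to cell_80 (36 and 41 TPM). Neither peptide led throughout. The rescaling is approximate, and the spread of 76 ribosomal protein genes (SD of the log2 mean) fell from 2.98 to 1.23 with it.

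The classical LOC transmitters crossed both members. *Gad2*, for GABA synthesis, was in 20 LOCs, of which 17 held *Ucn* and 12 *Uts2b*. *Slc5a7*, the choline transporter gene, was in 15 LOCs (14 with *Ucn*, 11 with *Uts2b*), and *Calcb* in 15 (14 and 10). *Chat*, for acetylcholine synthesis, was found in 5 LOCs, 4 of them with both members. The dopamine synthesis genes *Ddc* and *Th* were found in 9 and 7 LOCs, all of which held *Ucn*. Of those, 8 of the *Ddc* neurons and 5 of the *Th* neurons held *Uts2b*. Other peptide genes were rarer: *Pdyn* in 4 LOCs, *Npy* in 4 and *Penk* in 2, all with *Ucn*. With 23 of 28 LOCs holding *Ucn*, counts of this size say little about preference, and none was tested. Of 10 genes of the transmitter list that passed the filter, 7 were higher in LOCs by 1 or more and none in pLSOs (median difference 2.45). Over all genes tested the shares were 4.68% and 6.99% and the median was -0.07. *Calca*, *Chat* and *Slc5a7* are also LOC markers here, and *Chat* and *Pdyn* passed the filter through LOCs alone. The list was chosen as transmitters of LOCs, so nothing is read from its count.

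**Figure D4:**
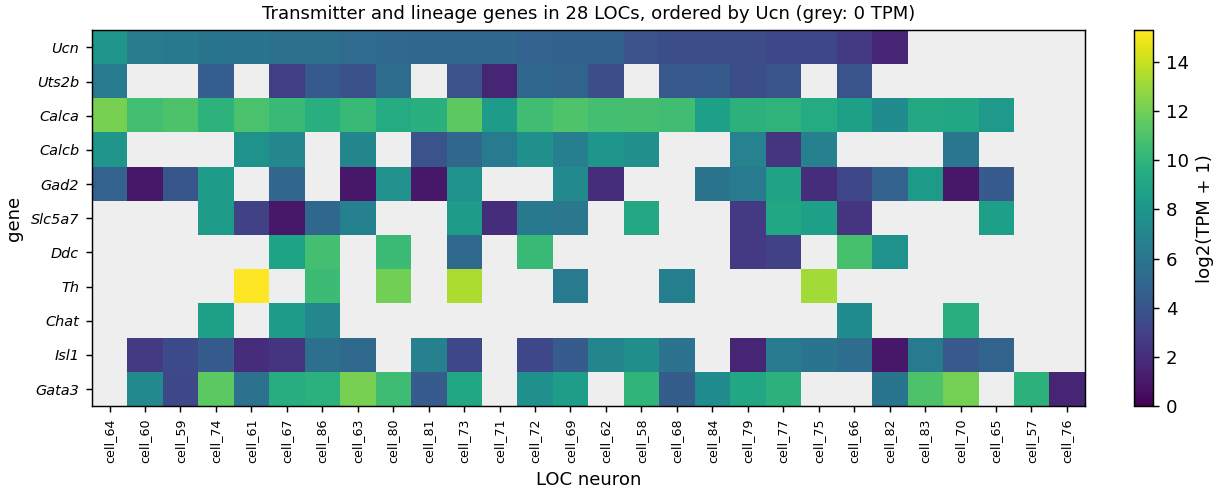
Level of the 2 peptides, transmitter genes and the LOC factors *Isl1* and *Gata3* (rows) in the 28 LOCs (columns, ordered by *Ucn*), as log2(TPM + 1) in colour, with 0 TPM in grey. Values are as deposited, so colours of different genes cannot be compared. *Calca* is present in every LOC with *Ucn*, grey *Uts2b* squares fall at both high and low *Ucn*, and the rightmost columns, cell_57 and cell_76, lack all rows but *Gata3*.

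CRF receptors were seldom found. *Crhr1* (chromosome 11, 104132855-104175523, plus strand) was in 4 of 41 Onset neurons, at 506 TPM in cell_12, 14 TPM in cell_15, 677 TPM in cell_28 and 2257 TPM in cell_34. It was in 1 of 11 Sustained neurons, cell_56, at 27 TPM, and in 1 of 28 LOCs, cell_68, at 6 TPM. That LOC also held *Ucn* at 12 TPM and *Uts2b* at 18 TPM. The shares were 9.62% of pLSOs (interval 3.20 to 21.0%) and 3.57% of LOCs (interval 0.0904 to 18.3%), with overlapping intervals. One of 8 negative controls, NC4, had 1021 TPM, which was above every neuron but cell_34. The mean in Onset neurons was 84.2 ± 371 TPM (SD, n = 41 neurons) and rested on cell_34, without which it was 29.9 TPM. Rescaled to own exon length, the Onset mean of *Crhr1* was 43.1, against 2290 for *Ucn* in LOCs. Deposited TPM of these genes are therefore not comparable with each other.

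The difference of LOCs minus pLSOs for *Crhr1* was -0.64 on the log2(TPM + 1) scale and did not pass 1. Between pLSO types, Sustained minus Onset was -0.38, where 10.3% of genes were higher in Sustained neurons by 1 or more and 4.78% in Onset neurons. *Ucn* and *Uts2b* were at 0 in both pLSO types. No left-out library held *Crhr1*. The type 2 receptor gene *Crhr2* (chromosome 6, 55090049-55133016, minus strand) was listed at 0 in all 80 neurons, which allows a share of up to 3.75% (Clopper-Pearson 4.51%), and in all 8 negative controls.

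*Crh* (chromosome 3, 19693401-19695396, minus strand) was found in 1 neuron, the Sustained neuron cell_55, at 1 TPM. *Crhbp* (chromosome 13, 95431371-95444924, minus strand) was found in 1 neuron, the Sustained neuron cell_52, at 4 TPM. Neither was found in a LOC, where a count of 0 among 28 allows a share of up to 10.7% (Clopper-Pearson 12.3%), nor in a negative control. Neither passed 5 TPM in any neuron.

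Other genes of both peptide systems were seldom or never detected. The urocortin 2 and 3 genes *Ucn2* and *Ucn3* and the urotensin receptor gene *Uts2r* were at 0 in all 80 neurons. *Uts2*, the gene of urotensin II itself, was found in 1 LOC, cell_80, at 1 TPM, a neuron with 36 TPM of *Ucn* and 41 TPM of *Uts2b*. *Ramp2*, which encodes an accessory protein of several peptide receptors, was in 2 Onset neurons and 2 LOCs. Receptor transcripts were thus not detectable in most neurons at a depth that is unknown, and a low level cannot be told apart from absence. The cutoff of 1 TPM also differs between genes on the rescaled scale, so shares of different genes do not rest on equal sensitivity.

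Genes through which CRF receptors act were measured more widely. Of 17 genes of the Gs and cAMP list, all passed the filter, 3 were higher in LOCs by 1 or more and 2 in pLSOs, with a median difference of 0.0049 on the log2(TPM + 1) scale (all genes: 4.68%, 6.99% and -0.07). After rescaling these counts were 2 and 1, without *Prkar2b* and *Adcy1*. *Gnas*, the gene of the Gs alpha subunit, was detected in 26 of 28 LOCs (median 125.5, highest 644 TPM) and 48 of 52 pLSOs (median 15, highest 243 TPM), a difference of 2.06. It was in 4 of 8 negative controls, at up to 666 TPM. *Prkacb*, a catalytic subunit of protein kinase A, was higher in LOCs by 2.75 and *Prkar2b*, a regulatory subunit, by 1.63. The adenylyl cyclase genes *Adcy8* (1 of 28 LOCs, 14 of 52 pLSOs) and *Adcy1* (11 of 28, 26 of 52) differed by -1.49 and -1.08.

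Of 8 Gq genes, on the side of urotensin signalling, 7 passed the filter, 2 were higher in LOCs by 1 or more and 1 in pLSOs (median 0.16), beside 4.68% and 6.99% of all genes. *Prkcb*, a protein kinase C, was in 15 LOCs and 7 pLSOs (difference 1.64), and *Plcb4*, a phospholipase C, in 14 and 15 (1.01). *Itpr1*, the IP3 receptor gene, was in 1 LOC and 24 pLSOs (-1.82).

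Of 13 genes for peptide processing and dense-core granules, 4 were higher in LOCs by 1 or more and 2 in pLSOs (median 0.39), beside 4.68% and 6.99% of all genes. After rescaling they were 4 and 4, with *Chgb* and *Scg2*, both of the granin family, added in pLSOs. *Pam*, which amidates the C terminus of peptides such as urocortin, was in 26 of 28 LOCs (median 125, highest 1626 TPM) and 34 of 52 pLSOs (median 10, highest 602 TPM). All 23 LOCs with *Ucn* held *Pam*, and 1 of 8 negative controls held it. *Cadps2*, a priming factor of dense-core vesicles, was in 16 LOCs and 2 pLSOs (difference 3.84), and 14 of those LOCs held *Ucn* while 7 held *Uts2b*. *Cadps* differed by 1.85 and *Vgf*, a granule protein gene, by 1.16. In the other direction, *Chga*, the chromogranin A gene, was in 14 of 28 LOCs and 41 of 52 pLSOs (-3.33), and the prohormone convertase gene *Pcsk2* in 10 and 37 (-1.23). Of the 23 LOCs with *Ucn*, 7 held *Pcsk2* and 3 held *Pcsk1*, the other main convertase gene.

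The genes most like *Ucn* over the 80 neurons, among 4799 compared by Pearson's r of log2(TPM + 1), were *Calca* (0.88), *Anxa2* (0.83), *Uts2b* (0.75), *Fxyd6* (0.72) and *Col4a3* (0.69). Those most like *Uts2b* were *Ucn* (0.75), *Calca* (0.70), *Bex1* (0.66), *Sncg* (0.62) and *Ncald* (0.61). Over all neurons such values mostly follow the split into LOCs and pLSOs. Within the 28 LOCs, among 4562 genes, the order changed: *Gnas* came first for *Ucn* (0.84), then *Gm20721* (0.68), *Calca* (0.68), *Anxa2* (0.56) and *Bmp3* (0.50), and *Uts2b* was at place 6. *Gm20721* lies inside *Gnas* on the opposite strand, so without strand the reads of both cannot be told apart. The r of *Gnas* and *Ucn* was 0.88 after rescaling to own length and 0.84 without cell_64. Other places changed without cell_64: over all neurons *Anxa2* (0.90) stood above *Calca* (0.88). Within LOCs *Anxa2* (0.78) then stood above *Calca* (0.66) and *Gm20721* (0.65). *Smim1* (0.64), *Gnas* (0.62), *Cnn3* (0.61), *Prr13* (0.61) and *Cacna1g* (0.59) came first for *Uts2b* within LOCs, with *Ucn* at place 26. All points share library and depth, and no p is given.

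Membrane and synaptic properties of the same LOCs were set against the level of both peptides, over 16 recorded features and 19 to 28 LOCs with a value. Spearman's rho lay between -0.32 (rheobase) and 0.33 (threshold of the action potential) for *Ucn* and between -0.13 (membrane time constant) and 0.33 (rise time of spontaneous inhibitory currents) for *Uts2b*. None of the values exceeded 0.4 in size. The relation of *Ucn* to rheobase, the smallest current that elicits a spike, depended on the neurons included. Its r went from -0.38 to -0.08 without cell_57 and cell_65. Behind cell_57, several LOCs had the same rheobase, and cell_65 was left out as the first of them in library order. The relation of *Ucn* to the resting potential went the other way, from r = 0.23 to 0.57 without the 2 of 19 LOCs farthest from the median potential. Values that move this much with 2 neurons are no finding at this number of LOCs.

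**Figure D5:**
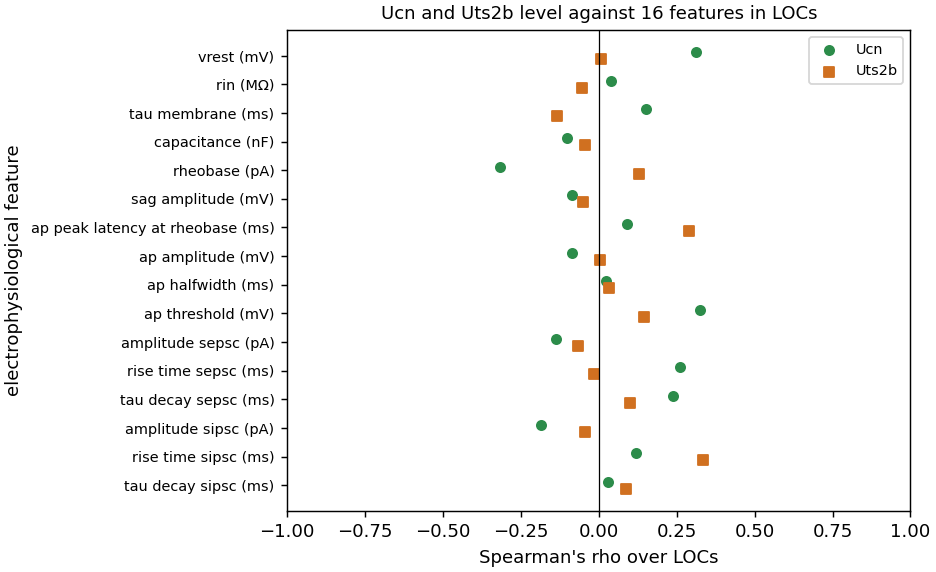
Spearman's rho (x axis) between log2(TPM + 1) and each of 16 electrophysiological features (y axis) over LOCs, for *Ucn* (circles) and *Uts2b* (squares). vrest is the resting potential, rin the input resistance, ap the action potential, and sepsc and sipsc are spontaneous excitatory and inhibitory postsynaptic currents; all values lie between -0.32 and 0.33.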

How the data were processed

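RNA of single patch-clamped neurons was amplified with a modified Smart-seq2 protocol. The authors trimmed reads (Trim Galore 0.4.2), aligned them to mm10 with STAR, marked duplicates (Picard 1.115), counted Gencode genes with featureCounts and deposited 1 table of TPM rounded to whole numbers, used here as a score and not as counts, with library sums of 999773 to 1000026. The table gives no read number per library, so the depth behind each value is unknown here. The gene lengths behind the deposited TPM appeared to stand in ascending order instead of belonging to their rows, so levels of different genes were compared after division by their own Gencode vM21 exon length (80 bases taken off; 37570 of 38887 genes had a length). Differences between classes, their shares and the correlations used the deposited scale, with rescaled values as an alternative.

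Groups followed the firing label. Detection was set at 1 TPM, differences are of mean log2(TPM + 1), genes present in fewer than 5% of the 80 neurons were dropped, and a difference of 1 served as the call. With 1 sample per class there was no test. Cells were not filtered further and doublets do not apply to single aspirated cells. The named genes were the 6 members, the rest of both peptide systems, fixed lists for Gs, Gq, granules and transmitters, and the 5 genes of highest correlation. The members and lists were chosen with earlier results of these data known, and the study itself had named *Ucn* as a marker from these neurons. Thresholds, pseudocounts, filters, left-out libraries and depth were varied. Differences and correlations were checked on simulated data. Tables were handled with pandas 2.3.3 under Python 3.11.15, intervals and rank correlations came from SciPy 1.17.1, Pearson's r from NumPy 2.4.6 and plots from matplotlib 3.10.9.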

Additional observations from a re-analysis of the deposited data

Results flagged for a closer look

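Among the 8 negative controls, NC9 stood apart for *Ucn* (6 TPM, with 1 TPM in NC4 and 0 in the others) and for *Uts2b* (7 TPM, 0 in the others), and NC4 stood apart for *Crhr1* (1021 TPM, 0 in the others). The gap criterion used (Dixon's, at 95%) is made for continuous values. Among controls that are otherwise at 0 it picks out any gene found in only 1 of them, so no rate of false picks is given. Signal was also present in libraries outside the comparisons: *Ucn* at 28 TPM in cell_54, 12 TPM in cell_78 and 16 TPM in cell_85, and *Uts2b* at 17 TPM in cell_78, each above the highest negative control.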

How the results depend on the processing

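Of 102 alternative values for 24 results, 87 stayed within the spread or interval of the reported value, 15 moved and none reversed. Some could not move, as *Crhr2* was at 0 in every library and rescaling leaves a 0 at 0. The count is therefore no measure of robustness. The difference of *Ucn* between LOCs and pLSOs was 6.58 with a pseudocount of 0.1 TPM, 1.63 with 10 TPM and 8.94 after rescaling to own length, and that of *Uts2b* was 4.22, 0.864 (under the call of 1) and 6.09. The share of pLSOs with *Crh* or *Crhbp* was 0% at 5 TPM and at 10 TPM. In neurons at or above the median number of detected genes (13 LOCs, 27 pLSOs), the share of pLSOs with *Crh* was 0%, as was that of LOCs with *Crhr1*, which was also 0% at 10 TPM. Genes higher in LOCs made up 1.24% of all genes with no filter and 7.69% of those in at least 20% of neurons, and genes higher in pLSOs 1.85% and 13.3%; these filters change the number of genes tested. The cause of the other shifts was not tested.

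After rescaling, genes of the transmitter list higher in LOCs were 9 instead of 7, and granule genes higher in pLSOs 4 instead of 2. The alternatives with rescaled shares and lists, all-library patterns, without the highest neuron and without cell_57 and cell_76 were chosen after seeing the data. No paired analysis was possible because the labels number neurons in 1 series and name no animal, and no result came from a test. Limits are the unknown depth, the lack of animal labels, the small number of LOCs, values rounded to whole TPM, and transcripts found in negative controls.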
